A study of Drosophila melanogaster with 13 samples.

Results

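The middle of chromosome arm 3L of Drosophila melanogaster, between 10 and 15.7 Mb of the dm6 genome, was followed in fly populations selected for ectopic wing veins. A site belongs to it when one of the 9 deposited allele count tables lists it on 3L between these borders, whatever its counts. This gave 108580 of the 1679136 sites listed in any table, against 274267 sites on the rest of 3L and 1296289 on other chromosomes and scaffolds. The interval overlaps 804 annotated genes, 602 of them protein-coding, and 16.2% of its bases are coding sequence.

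The data are genome sequences of pooled adult females (Pool-seq), with 1 pool of 100 females for each population. D907 is an inbred wild type line of the DGRP collection. Mix is an outbred population made from the inbred lines D208, D437, D820 and D907, and it was selected in 2 experiments, the later of which began from Mix flies kept for more generations. Assimilated flies come from pupae that were heat shocked and chosen for ectopic veins over generations, after which selection went on without heat shock. Nonassimilated flies were chosen for ectopic veins with no heat shock and descend from control flies. Control flies were reared without heat shock or selection, and P0 is the ancestral population of the line and experiment. Each of D907, Mix experiment 1 and Mix experiment 2 thus has 4 pools, 12 in all. Since each population is 1 pool, a test on its reads compares pools and not replicate populations, and neighbouring sites are linked and not independent.

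When a population is founded by few chromosomes or selected strongly, 1 haplotype can spread over a long stretch and take the variants it carries to fixation, so that diversity falls along a block whose ends are set by recombination. Middle 3L carries the Iroquois complex, the homeobox genes ara, caup and mirr, of which ara and caup are known to help position longitudinal veins and bristles in the wing disc. It also carries the Wnt receptor gene fz, the glypican gene dlp, the Bearded family genes that inhibit Notch signalling, and the ecdysone-induced Eig71E genes.

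Some sites carry the contrasts described below, and their dm6 reference bases are shown here to place them. Each run is the plus strand of the RefSeq genome (Release 6, dm6) with 12 bases on each side of the site, and the capital marks the reference base of the site. The tables give reads of a reference and an alternative allele but not the bases of the alternative, which may be a substitution or an insertion or deletion. All were chosen as the site with the smallest p-value of a Mix comparison.
Intron of mirr, chr3L:12697504-12697528: atttcaagtcacAttattgttgcga
Intron of Atg1 and CG42709, chr3L:12792564-12792588: tcggcgagcagcTgaagcttgaagg
Coding sequence of CG9760, chr3L:12159190-12159214: gttgtagtagttGatgtacgcccac
Coding sequence at CG14111 and SNCF, chr3L:13378801-13378825: cttgtaccgccaAgaactaaggcgg
Between genes, nearest to CG44355, chr3L:12319924-12319948: ataatctccggcTaggcacgtgggc
Between genes, nearest to dysc, chr3L:13904453-13904477: tcgaatttccccGaagagagggaaa
Between genes, nearest to Eig71Ed, chr3L:15653441-15653465: cgatggccattgAccaaaactcttg

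The median depth over the sites of the interval lay between 74 and 83 reads per pool. Tables of 1 experiment do not list the same sites: of the sites that any table of its experiment lists, 19.1% are missing from the assimilated table of experiment 2, 16.7% from the nonassimilated table of experiment 1 and 12.9% from the nonassimilated table of experiment 2, against 4.89% and 4.91% from the control tables of experiments 1 and 2. In the nonassimilated table of experiment 1 the missing sites had a median alternative allele frequency of 32.8% in P0 and the listed ones 41.2%. Levels per pool were therefore taken over sites that all 3 tables of an experiment list, 69658 in Mix experiment 1, 60637 in Mix experiment 2 and 45369 in D907. Sites missing from any of these tables are thus left out for every pool. What they would have added to the levels is not known.

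The selected pool that kept diversity in middle 3L was a different one in each of the 2 Mix experiments. In experiment 1 the assimilated pool kept most of it and the nonassimilated pool lost it, and in experiment 2 the assimilated pool lost it and the nonassimilated pool kept it. Diversity is given as 2pq, the expected heterozygosity of a site with allele frequencies p and q, averaged over sites. In experiment 1 mean 2pq was 0.291 in the assimilated, 0.126 in the nonassimilated, 0.238 in the control and 0.356 in the P0 pool. In experiment 2 it was 0.0814 in the assimilated, 0.256 in the nonassimilated, 0.249 in the control and 0.324 in the P0 pool. Both control pools had less than their P0 pool. Over the 4 selected pools 2pq averaged 0.188 ± 0.101 and over the 4 control and P0 pools 0.292 ± 0.0575 (SD, n = 4 each), a difference of -0.103 that did not exceed the spread between pools (two-sided exact permutation test, p = 0.171, smallest p possible 0.0286). The size of the difference depended on the pools taken as unselected, with -0.0547 against the 2 control pools alone (exact permutation test, p = 0.667) and -0.152 against the 2 P0 pools alone (exact permutation test, p = 0.133), where the smallest p possible is 0.0667.

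**Figure D1:**
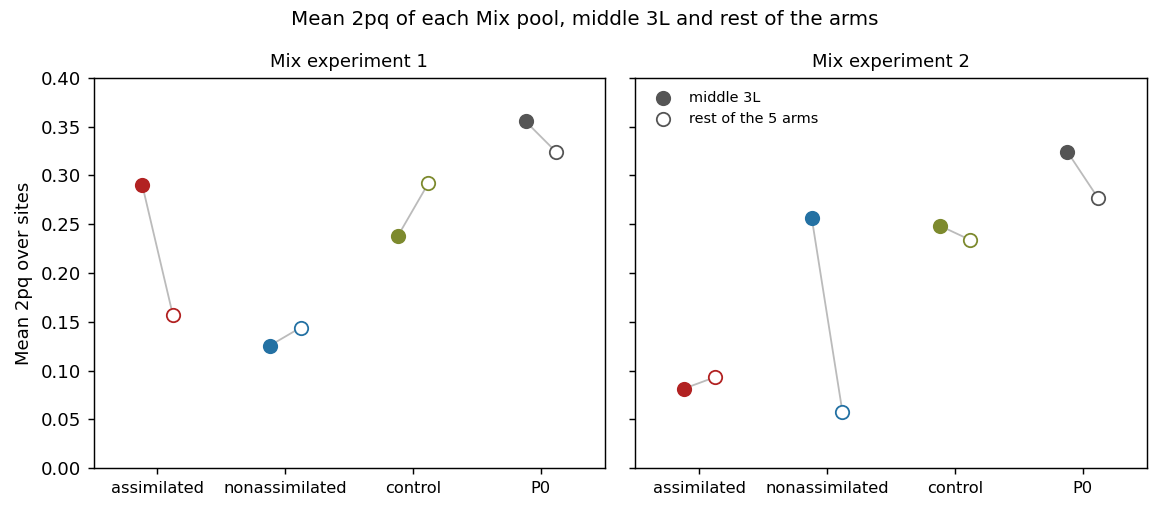
Mean 2pq of each Mix pool (y axis) in middle 3L (filled circles) and over the other sites of the 5 chromosome arms (open circles), 1 pool per group and experiment, with a grey line joining the values of a pool. The assimilated pool of experiment 1 and the nonassimilated pool of experiment 2 sit at 0.291 and 0.256 in the interval and at 0.157 and 0.0574 on the rest of the arms.

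The pools that kept most diversity here had less of it left on the rest of the arms. In the assimilated pool of experiment 1, 81.7% of the P0 level of 2pq remained in the interval and 48.5% on the rest of the 5 arms. For the nonassimilated pool of experiment 2 these values were 79.0% and 20.7%. The other selected pools had less left in the interval than on the rest of the 5 arms, with 35.3% in the interval and 44.4% on the rest of the arms for the nonassimilated pool of experiment 1, and 25.1% and 33.6% for the assimilated pool of experiment 2. The interval thus kept more than the rest of the arms in 2 of 4 selected pools, and the mean difference of 18.5 percentage points (SD 33.1, n = 4) did not stand out (two-sided exact sign-flip test, p = 0.5, with 4 pools too few for p to reach 0.05).

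On the rest of 3L the assimilated and nonassimilated pools kept 49.7% and 44.9% in experiment 1, and 12.5% and 30.3% in experiment 2. Against the rest of 3L the interval thus kept more in 3 of the 4 selected pools, the assimilated pool of experiment 2 among them, with the nonassimilated pool of experiment 1 lower, and the mean difference was 20.9 percentage points (SD 25.1, n = 4, two-sided exact sign-flip test, p = 0.25). The control pool of experiment 1 kept 66.8% of the P0 level in the interval, against 85.8% on the rest of 3L and 90.1% on the rest of the arms. In experiment 2 the control pool kept 76.7% in the interval, against 65.8% on the rest of 3L and 84.5% on the rest of the arms.

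Sites with changed allele frequency were counted next, with a site called changed when Fisher's exact test on its reads gave p below 1e-05 once multiplied by the number of sites tested in that comparison (Bonferroni). In Mix experiment 1 the assimilated pool changed from P0 at 1572 of 82645 sites of the interval (1.90%), where 14.2% of all sites of the series changed. The nonassimilated pool changed at 15353 of 72762 sites (21.1%), near the 21.4% of the whole series. The control pool changed at 1714 of 83119 sites (2.06%), above the 0.75% of the series.

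In Mix experiment 2 the assimilated pool changed from P0 at 16440 of 69952 sites (23.5%, with 26.2% over the series). The nonassimilated pool changed at 7354 of 75292 sites (9.77%, with 20.4% over the series). The control pool changed at 50 of 82187 sites (0.0608%, with 0.356% over the series). At the changed sites of the selected pools the median shift in frequency was 0.429 and 0.582 in the assimilated and nonassimilated pools of experiment 1, and 0.616 and 0.490 in those of experiment 2.

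Comparing derived pools with each other, the assimilated pool of experiment 1 differed from the control pool at 91 of 78867 sites (0.115%), while 17.7% of the sites of the series differed between these pools and 22.1% of those on the rest of 3L. This count rests on the strict threshold, since 32964 sites passed Benjamini-Hochberg at 0.05, 45.2% had an unadjusted p below 0.05, and the mean difference in frequency was 14.4 percentage points over the sites variable in P0 (30.9 on the rest of 3L). The nonassimilated pool differed from the control pool at 23908 of 70396 sites (34.0%, with 25.2% over the series), although nonassimilated flies descend from control flies. The assimilated and nonassimilated pools differed at 18888 of 71531 sites (26.4%, with 23.9% over the series). In experiment 2 the assimilated pool differed from the control pool at 19391 of 66840 sites (29.0%, with 22.4% over the series). The nonassimilated pool differed from the control pool at 13061 of 71889 sites (18.2%, with 20.2% over the series). The assimilated and nonassimilated pools of experiment 2 differed at 25204 of 62908 sites (40.1%), above the 18.8% of the series and the 11.1% of the rest of 3L.

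Fixation was read at sites whose minor allele had a frequency of at least 0.1 in P0, with a site called fixed in a derived pool at an alternative allele frequency of at most 0.02 or at least 0.98. Where low counts of the alternative allele went unrecorded, a site called fixed may still have carried it. Of 58560 such sites in experiment 1, 19.4% were fixed in the assimilated, 51.2% in the nonassimilated and 10.9% in the control pool. Of 46787 sites in experiment 2, 45.6% were fixed in the assimilated, 31.9% in the nonassimilated and 5.72% in the control pool. On the rest of the arms the selected pools had 43.5% and 51.6% of sites fixed in experiment 1, and 63.9% and 75.7% in experiment 2, for assimilated and nonassimilated flies in that order.

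The interval was then cut into 57 windows of 100 kb. In the nonassimilated pool of experiment 1 a single run of 23 windows, from 11.6 to 13.9 Mb, had at least 90% of its sites fixed, and 95.9% of 21128 sites were fixed over the run. Mean 2pq in this run was 0.0055 in the nonassimilated pool, with 0.273 in the assimilated, 0.243 in the control and 0.345 in the P0 pool. From the window that starts at 13800001 to the next, the share fixed in the nonassimilated pool was 96.8% and then 32.2%, and at the other end it was 51.9% in the window that starts at 11500001 and 97.6% in the next. Mean 2pq of that pool was already low before this border, 0.0592 in the window that starts at 11500001 and 0.00349 in the next, against 0.00444 and 0.259 across the border at 13.9 Mb. The run overlaps 256 protein-coding genes.

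**Figure D2:**
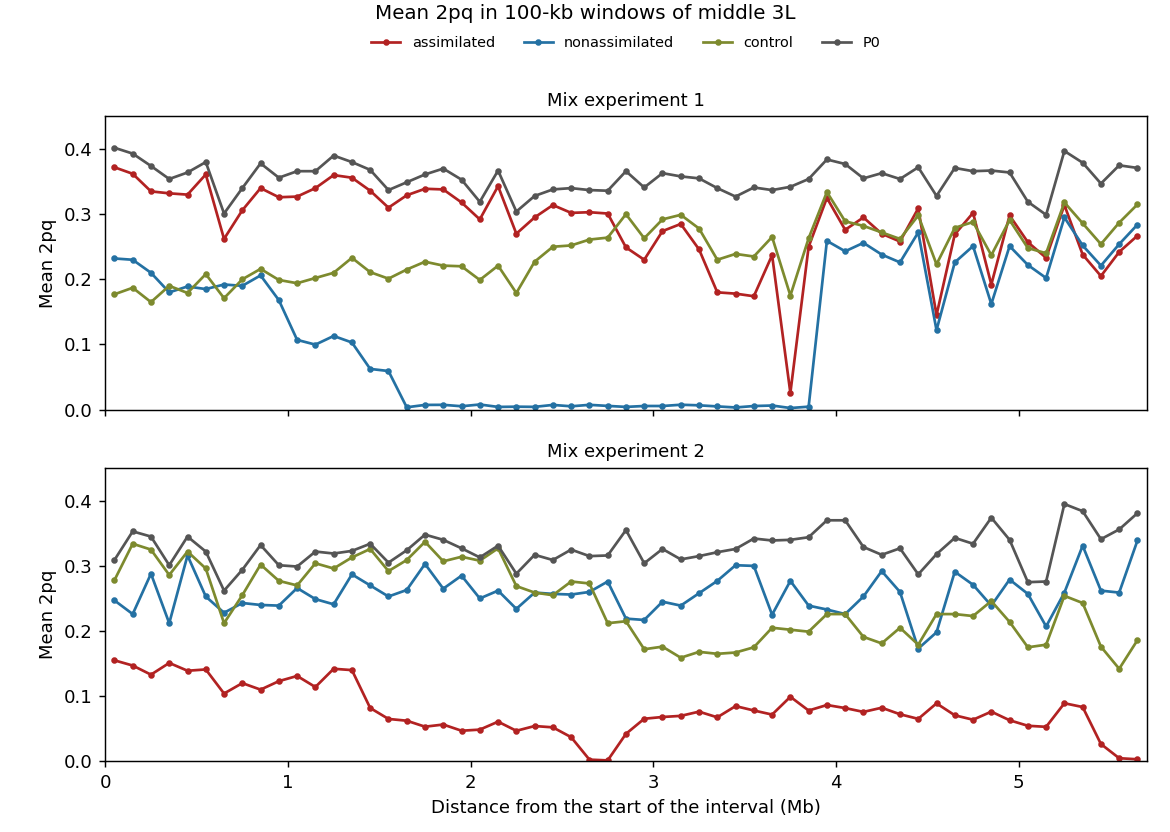
Mean 2pq in each of the 57 windows of 100 kb (y axis) by distance from the start of the interval in Mb (x axis), for the 4 pools of Mix experiment 1 (upper panel) and of experiment 2 (lower panel), 1 pool per line. The nonassimilated pool of experiment 1 stays near 0 between 1.6 and 3.9 Mb, and the assimilated pool of experiment 2 has its lowest values at 2.6 to 2.8 Mb and in the last windows.

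Other pools had shorter fixed stretches. In the assimilated pool of experiment 2 the window at 12.6 to 12.7 Mb had 98.5% and that at 12.7 to 12.8 Mb 99.3% of sites fixed, which together held 1386 sites with 98.8% fixed. Mean 2pq over this pair was 0.00205 in the assimilated, 0.267 in the nonassimilated, 0.248 in the control and 0.315 in the P0 pool. A further pair of windows, from 15.5 to 15.7 Mb, had 97.9% of 1311 sites fixed, with a mean 2pq of 0.00368 in the assimilated, 0.309 in the nonassimilated, 0.17 in the control and 0.372 in the P0 pool. This pair lies at the border of the interval and was not followed past it.

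The assimilated pool of experiment 1 reached 90% in a single window, 13.7 to 13.8 Mb, where 92.7% of 522 sites were fixed. That window overlaps 1 protein-coding gene, bru3, which encodes an RNA-binding protein. The nonassimilated pool of experiment 2 and both control pools had no window at 90%, with highest shares of 47.2% in that nonassimilated pool, and of 21.8% and 29.7% in the control pools of experiments 1 and 2.

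**Figure D3:**
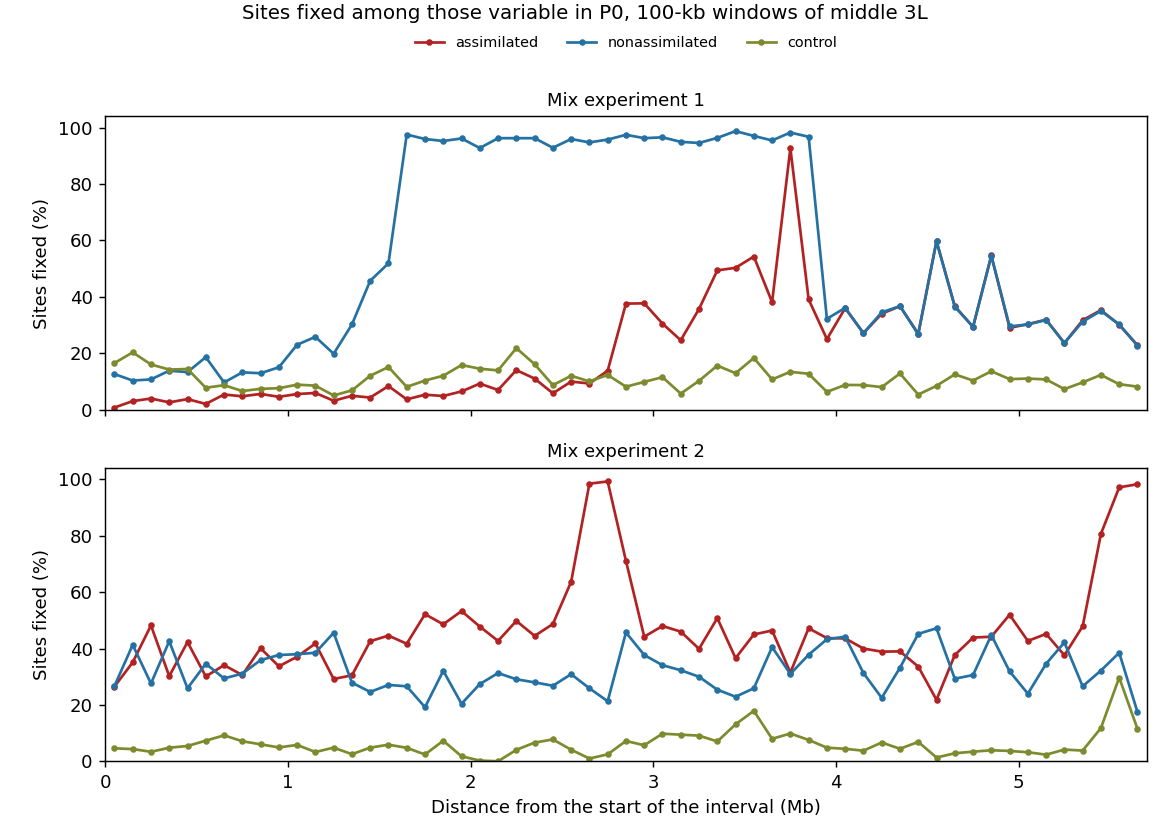
Percent of sites fixed among those variable in P0 (y axis) in each window of 100 kb by distance from the start of the interval in Mb (x axis), for the derived pools of Mix experiment 1 (upper panel) and experiment 2 (lower panel). The nonassimilated pool of experiment 1 has 23 windows at 90% or more, the assimilated pools of experiments 1 and 2 have 1 and 4, and the control pools stay below 30%.

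The frequency of the fixed alleles was then read in the other pools. Since only sites with a minor allele frequency of at least 0.1 in P0 were used, a P0 frequency away from fixation is set by that choice of sites and is no result. In the run of the nonassimilated pool of experiment 1, the fixed allele had a mean frequency of 60.7% ± 27.3 in the assimilated, 53.4% ± 32.0 in the control and 58.0% ± 19.3 in the P0 pool (SD over sites). For the pair of windows at 12.6 to 12.8 Mb, the allele fixed in the assimilated pool of experiment 2 was at 39.4% ± 24.6 in the nonassimilated, 47.4% ± 29.1 in the control and 49.3% ± 20.4 in the P0 pool. At 15.5 to 15.7 Mb it was at 65.0% ± 21.7 in the nonassimilated, 88.2% ± 7.88 in the control and 61.5% ± 14.9 in the P0 pool. In the window at 13.7 to 13.8 Mb the allele fixed in the assimilated pool of experiment 1 was at 88.1% ± 6.33 in the control and 68.7% ± 9.91 in the P0 pool, and the nonassimilated pool had the same allele at 100.0% ± 0.107. In both of these last stretches the control pool of the experiment was above its P0 pool in that allele.

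Alleles of the founder line D907 were then read in the Mix pools. Chosen were alternative alleles carried by D907 (at least 98% of the reads of its P0 pool) that had a frequency of at most 0.4 in the P0 pool of the other Mix experiment, which gave 3694 sites in experiment 1 and 941 in experiment 2. The sites of the 2 experiments differ, and levels were compared only within an experiment. In experiment 1 the D907 allele averaged 42.9% in the assimilated, 70.3% in the nonassimilated, 29.7% in the control and 51.6% in the P0 pool. In experiment 2 it averaged 1.14% in the assimilated, 33.7% in the nonassimilated, 18.0% in the control and 24.3% in the P0 pool. These levels and the order of the pools belong to alleles that are rare in the other P0 pool. With no limit on that frequency, which takes in alleles common in the other P0 pool, the averages were 65.7%, 81.9%, 58.2% and 63.9% over 36424 sites in experiment 1, and 71.9%, 67.9%, 69.5% and 69.4% over 22569 sites in experiment 2, in the same order of pools, so that the assimilated pool was above P0 in both and the nonassimilated pool of experiment 2 below it. With a limit of 0.3 the nonassimilated pool of experiment 2 was at 13.7% and P0 at 15.2%.

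The long fixed run of the nonassimilated pool of experiment 1 held D907 alleles with and without that limit. Over 11.6 to 13.9 Mb these were at 99.4% in the nonassimilated, 40.3% in the assimilated, 30.1% in the control and 49.0% in the P0 pool (1354 sites, SD over sites 1.01 in the nonassimilated and at most 12.1 in the other pools). With no limit they averaged 99.7% in the nonassimilated pool over 15622 sites, with 14992 of them at 98% or more (3456 in P0) and 0 at 2% or less, against 66.2% in the assimilated, 60.1% in the control and 63.5% in the P0 pool. Toward the start of the interval, in the 6 windows before 11.6 Mb, the D907 allele was already at 90.7% to 95.3% in the nonassimilated pool with 19.8% to 51.9% of sites fixed. Beyond 13.9 Mb it was at 33.3% ± 16.2 in the nonassimilated, 40.4% ± 14.2 in the assimilated, 32.7% ± 13.2 in the control and 51.8% ± 11.7 in the P0 pool (1196 sites).

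In the fixed windows of the assimilated pool of experiment 2 the D907 alleles that are rare in the other P0 pool were low, on few sites. Over 12.6 to 12.8 Mb the D907 allele was at 0.0% in the assimilated, 59.0% in the nonassimilated, 19.5% in the control and 33.9% in the P0 pool (13 sites), and over 15.5 to 15.7 Mb at 6.07%, 26.8%, 14.0% and 23.4% in the same order (19 sites). With no limit 611 of 754 D907 alleles at 12.6 to 12.8 Mb were at 98% or more in the assimilated pool and 140 at 2% or less, and 340 and 120 of 464 at 15.5 to 15.7 Mb. Of the 754 and 464 sites 330 and 130 were at 98% or more in P0 already and 0 at 2% or less, and such sites carry no information on what became fixed. In the nonassimilated pool of experiment 2 it stood between 52.9% and 60.7% in each of the 15 windows from 11.4 to 12.9 Mb, against 24.2% to 40.8% in P0, for the alleles within the limit, with 2pq of 0.219 to 0.303 and at most 45.7% of sites fixed. With no limit that pool was at 72.8% and P0 at 72.7% over the 754 sites at 12.6 to 12.8 Mb. With few such sites per window in experiment 2, between 3 and 32 in these 15 windows, and none in the window at 14.5 to 14.6 Mb, single windows of that experiment are imprecise.

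**Figure D4:**
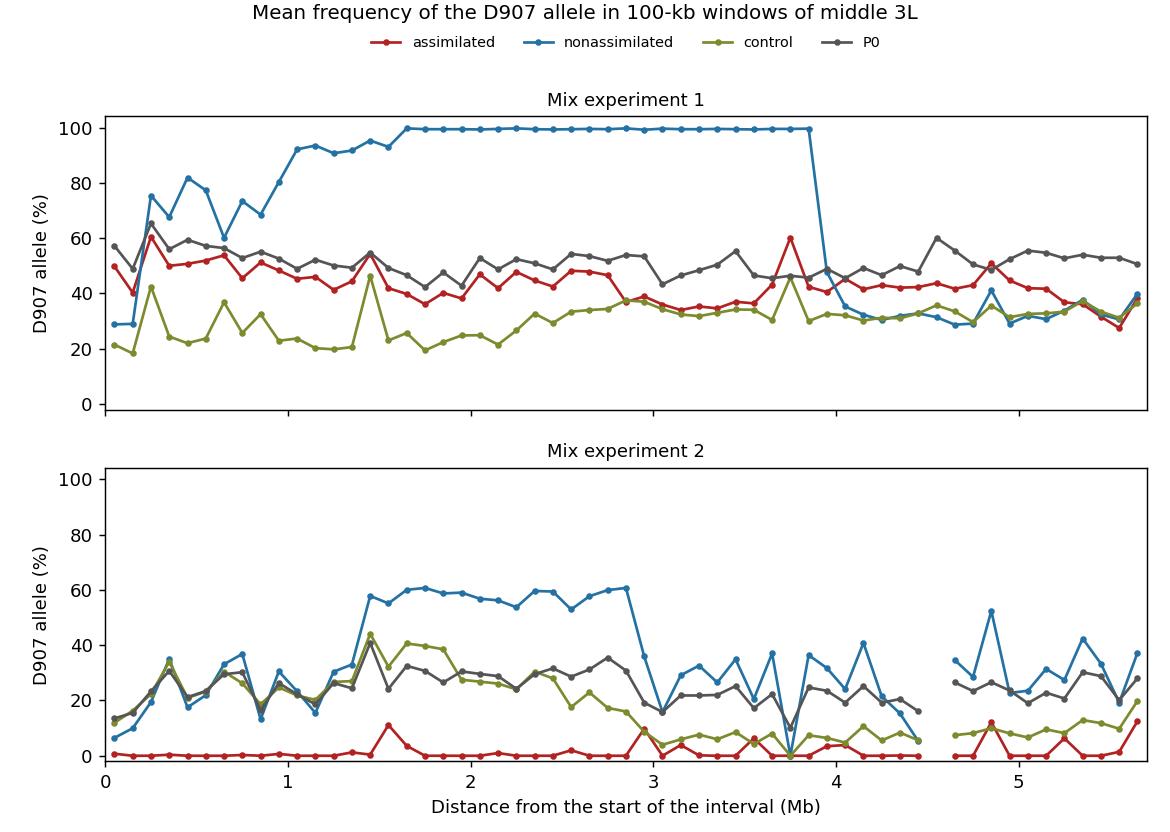
Mean frequency of D907 alleles at 0.4 or less in the P0 pool of the other experiment, in percent (y axis), in each window of 100 kb by distance from the start of the interval in Mb (x axis), for the 4 pools of Mix experiment 1 (upper panel) and experiment 2 (lower panel), with different sites in the 2 panels. The nonassimilated pool of experiment 1 reaches 99.2% or more in 23 windows, while the assimilated pool of experiment 2 stays at 12.5% or less and at 0 in most windows.

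The borders of the long run divide the interval into 10 to 11.6, 11.6 to 13.9 and 13.9 to 15.7 Mb. This division was made after the values had been seen. In experiment 1 the assimilated and nonassimilated pools differed at 6399 of 24867 sites in the first segment (25.7%), at 12369 of 26096 in the middle segment (47.4%) and at 120 of 20568 in the last (0.583%). Over sites variable in P0 the mean absolute difference in allele frequency between these pools was 35.1, 39.7 and 7.82 percentage points in the same order, and 28.3 on the rest of the arms. In the last segment 5688 sites were fixed in both pools, which is 99.4% of the 5721 fixed in the assimilated and 97.7% of the 5821 fixed in the nonassimilated pool, and 5686 of them held the same allele. Both pools descend from the same P0 population.

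In experiment 2 the assimilated and nonassimilated pools differed at 9264 of 21228 sites in the first segment (43.6%), 11535 of 24593 in the middle (46.9%) and 4405 of 17087 in the last (25.8%). The assimilated pool differed from the control pool at 8.89%, 31.9% and 50.8% of tested sites along the same segments, so that it came closest to control toward the start of the interval. Its mean absolute difference from the control pool was 27.2, 41.5 and 51.5 percentage points in that order.

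Along the first segment the assimilated pool of experiment 1 remained near its ancestor. It changed from P0 at 4 of 28704 sites (0.0139%), with 4.24% of sites fixed and a mean 2pq of 0.332, against 0.363 in P0. The control pool of that experiment changed at 1382 of 27064 sites of this segment (5.11%), and its 3 windows with the largest share of changed sites, between 10.4% and 15.2%, were the 3 between 10 and 10.3 Mb. Its 2pq there was 0.165 to 0.187, the lowest of its windows at 0.165 from 10.2 to 10.3 Mb.

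Pools of different experiments, which share no sequenced pool, were closest between the assimilated pool of experiment 2 and the control pool of experiment 1 in this first segment, with a mean absolute difference of 7.23 percentage points over 10009 sites variable in both P0 pools. On the same sites the assimilated pool of experiment 2 was 34.9 points from the P0 pool of experiment 1, and the P0 pools of the 2 experiments were 17.7 points from each other. In the middle and last segments the assimilated pool of experiment 2 and the control pool of experiment 1 were 33.8 and 47.6 points apart. This pair was picked from the values and was not tested.

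The pools that lost diversity held the same allele at most sites fixed in both, and opposite alleles at the others. Of 49682 sites listed for both, the nonassimilated pool of experiment 1 and the assimilated pool of experiment 2 were both fixed at 19368, for the same allele at 15993 of these (82.6%) and for opposite alleles at 3375 (6.79% of the listed sites). These counts take in sites that were not variable in both P0 pools. Over sites variable in both P0 pools 8550 were fixed in both, 5835 for the same allele and 2715 for opposite alleles. On the rest of the 5 arms 177121 such sites were fixed in both, 134992 for the same allele and 42129 for opposite alleles. At 12.6 to 12.8 Mb 1361 of 1411 listed sites were fixed in both, and 359 (25.4%) were opposite, while of 861 sites variable in both P0 pools 826 were fixed in both, 522 for the same allele and 304 for opposite alleles. Within experiment 2 the assimilated and nonassimilated pools were fixed for opposite alleles at 470 of 62908 sites and for the same allele at 16091, counting sites that P0 had fixed already. Over sites variable in P0 4129 were fixed in both, 3681 for the same allele and 448 for opposite alleles. At 12.6 to 12.8 Mb 328 were fixed in both, 44 for the same allele and 284 for opposite alleles. On the rest of the 5 arms 344446 sites variable in P0 were fixed in both, 298852 for the same allele and 45594 for opposite alleles. Within experiment 1 11312 sites variable in P0 were fixed in both selected pools, 11303 for the same allele and 9 for opposite alleles. The rest of the 5 arms had 201806 such sites, 179851 for the same allele and 21955 for opposite alleles.

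How many changes were shared between experiments depended on the threshold. Sharing was counted in the interval only, so whether these counts differ from the rest of the series was not tested. The assimilated pools of both experiments were called changed from their own P0 pools in the same direction at 143 sites, 11.6% of the 1232 changed in experiment 1 and 1.15% of the 12423 changed in experiment 2 among sites tested in both, and in opposite directions at 412. For the nonassimilated pools 321 sites changed in the same direction, which is 3.87% of the 8305 changed in experiment 1 and 5.80% of the 5532 changed in experiment 2, while 804 changed in opposite directions. The control pools shared 1 site, 0.0673% of 1486 and 2.86% of 35. With Benjamini-Hochberg below 0.05 in each experiment the sites of the same direction numbered 11571 for assimilated, 13495 for nonassimilated and 12349 for control pools. A Cochran-Mantel-Haenszel test over both experiments called 3586, 9519 and 1411 sites. That test pools the experiments, and a strong change in 1 of them can be enough, so these are not counts of sites changed in both.

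Windows with the largest share of changed sites against P0 fell in different places. For the assimilated pools they were 15.6 to 15.7 Mb (8.85%), 14.5 to 14.6 Mb (8.68%) and 13.3 to 13.4 Mb (8.59%) in experiment 1, and 12.6 to 12.7 Mb (52.5%), 12.7 to 12.8 Mb (47.9%) and 13.4 to 13.5 Mb (47.1%) in experiment 2. For the nonassimilated pools they were 13.1 to 13.2 Mb (54.6%), 11.7 to 11.8 Mb (51.7%) and 13 to 13.1 Mb (50.9%) in experiment 1, and 14.8 to 14.9 Mb (26.5%), 14.5 to 14.6 Mb (25.0%) and 15.2 to 15.3 Mb (24.6%) in experiment 2. The control pool of experiment 2 had 1.28% or less in every window, with the highest share at 15.6 to 15.7 Mb.

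By annotation, the share of tested sites that changed was largest in coding sequence in each of the 6 derived Mix pools. This order was not tested. In the assimilated pool of experiment 1 3.30% of coding and 1.69% of intron sites changed, and in the nonassimilated pool 30.1% of coding and 18.8% of intron sites. In experiment 2 these shares were 25.9% and 24.0% in the assimilated pool, and 11.9% and 9.21% in the nonassimilated pool. In the control pools the shares were 2.77% of coding and 2.14% of intron sites in experiment 1 (2.41% in UTRs and noncoding exons), and 0.0718% and 0.066% in experiment 2, where only 6 coding and 23 intron sites changed. Coding sites were 10.2% to 11% of tested sites in the 6 pools.

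Among the genes, those of wing and disc patterning lie mostly in the long run. Of 602 protein-coding genes, 155, 469 and 165 held at least 1 site changed from P0 in the assimilated, nonassimilated and control pools of experiment 1, and 475, 286 and 22 in those of experiment 2. Among all 602 genes the shares with a changed site were thus 25.7%, 77.9% and 27.4% for experiment 1, against 78.9%, 47.5% and 3.65% for experiment 2. Of 8 patterning transcription factor genes in the interval, 1, 7 and 2 held a changed site in experiment 1, and 8, 3 and 0 in experiment 2, in the same order. Among genes with at least 10 sites variable in P0, at least 90% of them were fixed in 5, 178 and 0 of 422 genes in experiment 1, and in 61, 12 and 0 of 392 genes in experiment 2.

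The Iroquois complex was fixed in the assimilated pool of experiment 2 and nearly so in the nonassimilated pool of experiment 1. It shared this with the stretches around it. The windows at 12.6 to 12.8 Mb, which hold caup and mirr, had 98.8% of all sites fixed in that assimilated pool. The run from 11.6 to 13.9 Mb had 95.9% fixed in that nonassimilated pool. Over the whole interval 45.6% and 51.2% of sites were fixed in these pools. Over ara, caup and mirr 287 of 293 sites (98.0%) were fixed in the assimilated pool of experiment 2, against 67 (22.9%) in the nonassimilated and 7 (2.39%) in the control pool. In experiment 1 25 of 452 sites (5.53%) were fixed in the assimilated, 409 (90.5%) in the nonassimilated and 29 (6.42%) in the control pool. At caup (3L, 12609631 to 12621798) 92 of 92 sites were fixed in the assimilated pool of experiment 2, with 26 in the nonassimilated and 0 in the control pool. At ara (12580672 to 12596018) 102 of 106, and at mirr (12693639 to 12710249), which acts in dorsal eye and body patterning, 93 of 95 sites were fixed in that assimilated pool. In changed sites against P0 these genes gave 277 of 474 in the assimilated pool, 4 of 552 in the nonassimilated and 0 of 627 in the control pool of experiment 2, and 0 of 719, 254 of 546 and 0 of 709 in experiment 1. Of all sites of the interval 23.5%, 9.77% and 0.0608% changed in experiment 2, and 1.90%, 21.1% and 2.06% in experiment 1.

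**Figure D5:**
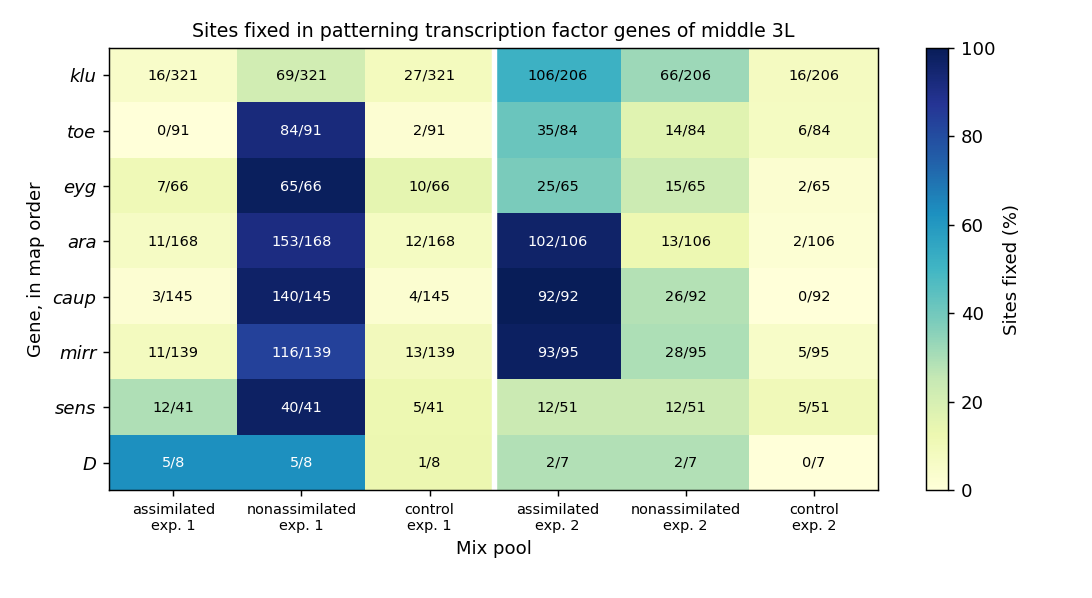
Sites fixed over sites variable in P0 for the 8 patterning transcription factor genes of the interval, in map order (rows), in the 6 derived Mix pools (columns, 1 pool each), with the colour giving the percent fixed. The assimilated pool of experiment 2 has 102 of 106, 92 of 92 and 93 of 95 sites fixed at ara, caup and mirr and 12 of 51 at sens, and the nonassimilated pool of experiment 1 has 40 of 41 at sens.

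The other patterning genes had their largest share of fixed sites in different pools. The Pax family genes toe and eyg had 84 of 91 and 65 of 66 sites fixed in the nonassimilated pool of experiment 1, against 0 and 7 in the assimilated and 2 and 10 in the control pool. The gene sens, a zinc finger factor of sensory organ precursors, had 40 of 41 sites fixed in the nonassimilated, 12 in the assimilated and 5 in the control pool of experiment 1. All these genes lie in the long run, where 95.9% of 21128 sites were fixed in that nonassimilated pool. In experiment 2 toe, eyg and sens had 35 of 84, 25 of 65 and 12 of 51 sites fixed in the assimilated pool. The nonassimilated pool had 14, 15 and 12 of them fixed and the control pool 6, 2 and 5. The zinc finger gene klu, before the run, had 16, 69 and 27 of 321 sites fixed in the assimilated, nonassimilated and control pools of experiment 1, and 106, 66 and 16 of 206 in experiment 2. The Sox gene D had few sites, with 5 of 8 fixed in both selected pools of experiment 1.

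Genes of Wnt, Hedgehog, Dpp, Hippo and planar polarity signalling numbered 8 in the interval. Of these 4, 8 and 4 held a site changed from P0 in the assimilated, nonassimilated and control pools of experiment 1, and 8, 5 and 1 in experiment 2, beside shares over all genes of 25.7%, 77.9% and 27.4%, and of 78.9%, 47.5% and 3.65%. The receptor gene fz (14274343 to 14368639) had 344 of 830 sites fixed in each selected pool of experiment 1 and 133 in the control pool, and 278, 226 and 26 of 634 in the assimilated, nonassimilated and control pools of experiment 2. The assimilated and nonassimilated pools of experiment 1 differed at 1 site of fz and at none of dlp. The gene app, a palmitoyltransferase of Fat signalling inside the long run, had 57, 495 and 98 of 505 sites fixed in experiment 1, and 211, 153 and 7 of 528 in experiment 2, in the assimilated, nonassimilated and control pools. At Ptp69D, a receptor tyrosine phosphatase, 36 of 36 sites were fixed in the assimilated pool of experiment 2, against 15 and 0 in the nonassimilated and control pools. It lies in the windows at 12.6 to 12.8 Mb, where 98.8% of 1386 sites were fixed in that assimilated pool.

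Of 6 genes of Notch, Bearded and EGFR signalling, 3, 3 and 0 held a changed site in the assimilated, nonassimilated and control pools of experiment 1, and 5, 4 and 0 in experiment 2. Over all genes 25.7%, 77.9% and 27.4% did in experiment 1, and 78.9%, 47.5% and 3.65% in experiment 2. The cell surface genes caps and trn lie in the long run, and caps (13228692 to 13279642) had 212, 567 and 59 of 599 sites fixed in experiment 1 and 180, 108 and 53 of 438 in experiment 2. The Bearded family genes Brd, Ocho, Tom and BobA had at most 18 sites variable in P0 each. Of these Ocho had 4, 4 and 1 of 14 sites fixed in experiment 1 and 8, 4 and 0 of 12 in experiment 2.

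The ecdysone-induced Eig71E genes, expressed in larval salivary glands, form a cluster at the end of the interval. It lies in the windows at 15.5 to 15.7 Mb, which overlap 53 protein-coding genes. These windows had 97.9% of 1311 sites fixed in the assimilated pool of experiment 2, so the cluster shared its fixation there with the stretch around it. Over 11 genes 56 of 57 sites (98.2%) were fixed in the assimilated pool of experiment 2, with 9 (15.8%) in the nonassimilated and 7 (12.3%) in the control pool, where 45.6%, 31.9% and 5.72% of all sites of the interval were fixed. In experiment 1 8 of 53 sites were fixed in the assimilated, 8 in the nonassimilated and 4 in the control pool, where 19.4%, 51.2% and 10.9% of all sites of the interval were fixed. Sites changed from P0 numbered 33 of 60 in the assimilated pool, 0 of 76 in the nonassimilated and 1 of 74 in the control pool of experiment 2, and 18, 3 and 2 of 58 in those of experiment 1, beside 23.5%, 9.77% and 0.0608% of all sites of the interval in experiment 2, and 1.90%, 21.1% and 2.06% in experiment 1. Of the 21 larval secretion, hormone response and metabolic marker genes in the interval, to which these belong, 16, 1 and 1 held a changed site in experiment 2 (all genes 78.9%, 47.5% and 3.65%) and 5, 9 and 4 in experiment 1 (all genes 25.7%, 77.9% and 27.4%).

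The list of heat shock proteins and chaperones has 5 genes in the interval. Sod1, which encodes a superoxide dismutase and no chaperone, is on it and also among the metabolic marker genes above. Of these genes 4, 5 and 1 held a changed site in the assimilated, nonassimilated and control pools of experiment 1, and 5, 4 and 0 in experiment 2. The gene counted in the control pool was Sod1, with 1 of 22 tested sites changed. The shares over all genes were 25.7%, 77.9% and 27.4%, and 78.9%, 47.5% and 3.65%. At stv, a co-chaperone of the BAG family, 38 of 46 tested sites changed in the assimilated pool of experiment 2, 2 of 48 in the nonassimilated and 0 of 35 in the control pool. At Hsp110 14 of 48, 18 of 48 and 0 of 48 sites changed in experiment 1, and 19 of 38, 14 of 41 and 0 of 47 in experiment 2. Over all sites of the interval 1.90%, 21.1% and 2.06% changed in experiment 1, and 23.5%, 9.77% and 0.0608% in experiment 2. At Sod1 16 of 16 sites were fixed in the assimilated pool of experiment 2 and none in the nonassimilated and control pools. Of 3 chromatin regulator genes, E(z), Trl and AGO2, 1, 2 and 1 held a changed site in experiment 1, and 2, 2 and 0 in experiment 2.

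Some genes in the interval are ones that the study lists as differentially expressed in these lines, and that choice is not independent of the populations. Of 8 listed for nonassimilated Mix pupal wings, 3, 8 and 1 held a changed site in the assimilated, nonassimilated and control pools of experiment 1, and 7, 4 and 1 in experiment 2. Of 7 listed for nonassimilated Mix wing discs these counts were 0, 6 and 5, and 4, 5 and 0, and of 4 listed for assimilated D907 wing discs 3, 4 and 2, and 4, 4 and 0. All genes of the interval gave 25.7%, 77.9% and 27.4%, and 78.9%, 47.5% and 3.65%. Among them nebu had 189 of 190 sites fixed in the assimilated pool of experiment 2, with 96 in the nonassimilated and 9 in the control pool, and ImpL1, an ecdysone-inducible gene, had 28 of 28 fixed in the nonassimilated pool of experiment 1, with 3 in the assimilated and 0 in the control pool. ImpL1 lies in the long run, where 95.9% of sites were fixed in that nonassimilated pool. The single gene listed for assimilated Mix pupal wings, CG16959, changed at 15 of 55, 14 of 55 and 0 of 63 sites in experiment 1. In experiment 2 it changed at 33 of 55, 5 of 64 and 0 of 61 sites. Beside these stand 1.90%, 21.1% and 2.06% of all sites of the interval in experiment 1, and 23.5%, 9.77% and 0.0608% in experiment 2.

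Single sites with the smallest p-values show the alleles behind these counts. Percentages of reads are given for 1 pool, some with the reads behind them, and Wilson 95% intervals cover counting error only. Upper limits given for 0 reads also cover counting error only, and hold only where every alternative read was recorded. Depth at some of these sites was well above the median of the interval and differed between pools, and the cause was not tested. The mirr site at 12697516 had the alternative allele at 104 of 104 reads in the assimilated pool of experiment 2 (96.4% to 100.0%), against 0 of 116 in the nonassimilated pool, which by counting error alone allows up to 2.59%. The control and P0 pools of that experiment had 11.5% (6.36% to 19.9%) and 17.4% (11% to 26.4%), and the assimilated and nonassimilated pools differed with an adjusted p of 1.50e-59 in Fisher's exact test. In experiment 1 the same allele was at 20.0% in the assimilated, 0 of 108 in the nonassimilated, 10.8% in the control and 26.9% in the P0 pool.

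At the Atg1 and CG42709 site (12792576) the alternative allele was at 80 of 80 reads in the assimilated pool of experiment 2, 37.0% in the nonassimilated and 13.2% in the control pool, against 0 of 95 in P0, which by counting error alone allows up to 3.16% (assimilated against P0, Fisher's exact test, adjusted p = 7.04e-46). P0 of experiment 1 had it at 29.5% (20.5% to 40.4%), and the nonassimilated pool of that experiment at 0 of 72 reads. The CG9760 coding site (12159202) carried the D907 allele, at 81 of 81 reads in D907 P0. It was at 23.4% (18.2% to 29.6%) in the assimilated, 98.1% (93.4% to 99.5%) in the nonassimilated, 8.36% (5.68% to 12.1%) in the control and 33.9% (27.5% to 40.9%) in the P0 pool of experiment 1. The site had 209, 107, 287 and 186 reads in these pools, where the median depths of the interval were 82, 83, 76 and 80. The assimilated and nonassimilated pools differed there with an adjusted p of 2.32e-36 in Fisher's exact test.

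The CG14111 and SNCF coding site (13378813) was at 87.9% (82.3% to 92.0%) in the assimilated pool of experiment 1, against 0 of 102 reads in the nonassimilated pool, with 77.8% in the control and 50% in the P0 pool (assimilated against nonassimilated, Fisher's exact test, adjusted p = 6.08e-49). This site had 174, 180 and 130 reads in the assimilated, control and P0 pools. In experiment 2 it was at 11.7%, 0 of 83 reads, 90.7% and 64.3% in the assimilated, nonassimilated, control and P0 pools. The nearby site 13379139, in an untranslated or noncoding exon of the same genes, held a D907 allele at 100.0% in both nonassimilated pools, and at 21.6% and 84.5% in the assimilated pools of experiments 1 and 2.

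The site nearest to CG44355 (12319936) had the alternative allele at 0 of 126 reads in the nonassimilated pool of experiment 1, with 60% in the assimilated, 76.0% in the control and 75.0% in the P0 pool. In experiment 2 it was at 98.6% to 100.0% in all 4 pools. The site nearest to dysc (13904465), just past the end of the long run, held the D907 allele at 37.0%, 100.0%, 42.0% and 62.2% in the assimilated, nonassimilated, control and P0 pools of experiment 1, and at 94.9%, 37.4%, 0.0% and 27.0% in experiment 2. The site nearest to Eig71Ed (15653453), the one with the smallest p-value between control and P0 in experiment 2, was at 93.3% (86.9% to 96.7%) in the control and 36.5% (27.9% to 46.1%) in the P0 pool (Fisher's exact test, adjusted p = 3.77e-13). It was at 100.0% in the assimilated pools of both experiments and in the nonassimilated pool of experiment 1, and at 56.8% in the nonassimilated pool of experiment 2.

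The remaining named sites lie between genes near CG10222 (13408264) and CG43245 (10760500), in an intron of Rbfox1 (10487724) and in an exon of SuUR and CG45101 (11068589). At the first 2 of these P0 of experiment 1 had 0 of 72 and 0 of 80 alternative reads, while P0 of experiment 2 had 44.3% and 55.4%. The SuUR site was at 97.2% in the assimilated, 0 of 73 reads in the nonassimilated, 73.3% in the control and 72.4% in the P0 pool of experiment 2. It had 177, 180 and 156 reads in the assimilated, control and P0 pools.

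In inbred D907 the interval was almost without variation. Mean 2pq was 0.00364 in the assimilated, 0.00334 in the nonassimilated, 0.00328 in the control and 0.00352 in the P0 pool, and 340 of 45369 sites (0.749%) had a minor allele frequency of at least 0.1 in P0. Against P0 the assimilated pool changed at 4 of 46730 sites, the nonassimilated pool at 3 of 46816 and the control pool at 2 of 46737, where 4.38%, 1.84% and 0.0379% of all sites of the series changed. Assimilated and control pools differed at 5 of 45910 sites (2.92% over the series) and assimilated and nonassimilated pools at 6 of 45928 (1.12%). Between nonassimilated and control pools 0 of 45969 sites differed (0.738% over the series; Bonferroni-adjusted Fisher's exact test), while 93 had an unadjusted p below 0.05 and 42 passed Benjamini-Hochberg at 0.05.

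The changes of D907 pools against P0 fell on 6 sites. A site in an intron of tna (10842532) had the alternative allele at 25 of 25, 41 of 43 and 38 of 38 reads in the assimilated, nonassimilated and control pools, against 0 of 39 in P0, and every read of the 8 Mix pools carried it. Depth there was low, since the median depths of the interval in the assimilated, nonassimilated, control and P0 pools of D907 were 82, 82, 81 and 84. Muc68D, a mucin gene, held 2 coding sites. At 11770723 the alternative allele was at 0 of 43 reads in the assimilated, 81.1% in the nonassimilated, 87.1% in the control and 85.9% in the P0 pool, and at 11770468 it was at 45.6%, 0 of 133 reads, 0 of 143 reads and 39.9% in the same order. In Mix the allele at 11770723 was at 84.3% and 80.0% in the nonassimilated and control pools of experiment 1, and at 83.0% in the assimilated pool of experiment 2. The other Mix pools, both P0 pools among them, had 0 reads of it. Whether this site was called correctly was not tested. In prc, which encodes a pericardial matrix protein, 2 coding sites 11963101 and 11963192 were at 31.2% and 38.5% in the assimilated pool and at 0 reads in the other 3 pools. A site in an intron of dpr6 (10126594) was at 45.2% in the nonassimilated and 25.3% in the control pool, against 0 of 103 reads in P0.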

How the data were processed

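The authors aligned Pool-seq reads with BWA to dm6 and called variants with GATK (versions not given in the sources used here). The 9 deposited tables each pair a derived pool with its P0 pool and give read counts of the reference and alternative allele per site. They also hold Fisher p-values as deposited by the authors, with a q-value, which served as an alternative threshold, and a rank score, which was not used. Filters on sites and the alleles' bases are not given in the sources used here.

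From the counts, allele frequency (alternative reads over all reads), 2pq, fixation and two-sided Fisher's exact tests were computed for 18 comparisons. Recomputed p-values were equal to the deposited ones, within a relative tolerance of 1e-06, at 99.9858% to 99.9986% of sites. P-values were adjusted over all sites of the comparison. Pools were compared by exact permutation and sign-flip tests. The scripts were tested on simulated counts with 200 changed sites. Genes came from the Ensembl annotation of the same assembly and printed bases from RefSeq. Members, gene lists and limits were chosen with earlier results of these data known. Named sites had the smallest p-value of a comparison, named windows were the 3 with most change per comparison (50 or more sites tested), and all genes of the lists found in the interval could be named. Each Mix experiment has its own P0 pool, so its number pairs the pools. Alternatives were a threshold of 1e-08, Benjamini-Hochberg, the deposited q-value, counts scaled to 200 chromosomes, at least 30 reads and other limits on frequency. Tests ran in SciPy 1.17.1 and Numba 0.67.0 (Python 3.11.15), tables in pandas 2.3.3 with NumPy 2.4.6, and plots in Matplotlib 3.10.9.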

Additional observations from a re-analysis of the deposited data

Results flagged for a closer look

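The difference between assimilated and nonassimilated pools had opposite signs in the 2 Mix experiments. Mean 2pq of the interval, assimilated minus nonassimilated, was 0.165 in experiment 1 and -0.175 in experiment 2. The percent of sites fixed, assimilated minus nonassimilated, was -31.7 percentage points in experiment 1 and 13.7 in experiment 2. With 1 pool per group and experiment the difference between experiments was not tested.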

How the results depend on the processing

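Counts of changed sites moved with the threshold. In experiment 1 the assimilated count against P0 was below the control count in the main setting (1572 and 1714) and above it at 1e-08. With Benjamini-Hochberg below 0.05 the counts against P0 for assimilated, nonassimilated and control pools were 71, 44 and 22 in D907, 31369, 55895 and 45838 in Mix experiment 1, and 49977, 47278 and 22429 in Mix experiment 2. For assimilated against control, nonassimilated against control and assimilated against nonassimilated they were 58, 42 and 50 in D907, 32964, 38378 and 35212 in experiment 1, and 46967, 51993 and 41459 in experiment 2. With the deposited q-value the counts against P0 were 8, 7 and 5 in D907, 8848, 37301 and 10580 in experiment 1, and 39660, 17026 and 1687 in experiment 2. At 1e-08 they were 389, 10080 and 361 in experiment 1 and 10577, 3606 and 8 in experiment 2, with 12 for assimilated against control in experiment 1 and 3 in D907. With counts scaled to 200 chromosomes they were 104, 8468 and 138 in experiment 1 and 9006, 2196 and 5 in experiment 2, with 2 for assimilated against P0 in D907, 2 for assimilated against control and 2 for assimilated against nonassimilated there, and in experiment 1 8 for assimilated against control and 12350 for assimilated against nonassimilated.

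The share fixed in the control pool of experiment 1 was 4.08%, and that of experiment 2 2.54%, with a P0 minor allele frequency of at least 0.2. With no limit on the P0 frequency the D907 allele averaged 58.2% in the control pool of experiment 1, and 71.9%, 67.9%, 69.5% and 69.4% in the assimilated, nonassimilated, control and P0 pools of experiment 2. A limit of 0.6, added after seeing the data, gave 46.6% and 28.0% in the control pools of experiments 1 and 2, and a limit of 0.3 gave 9.50% in that of experiment 2. The order of assimilated and P0 pools turned with no limit in both experiments, and that of nonassimilated and P0 pools in experiment 2 with no limit and with a limit of 0.3 (13.7% and 15.2%). With no limit the control pool of experiment 2 was also above P0.

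Sites with a change of 1 direction in both experiments numbered 11571, 13495 and 12349 for assimilated, nonassimilated and control pools with Benjamini-Hochberg, and 27 and 40 for assimilated and nonassimilated pools at 1e-08. In the 4 selected pools, which share a P0 pool within each experiment, the count was 0 in the main setting and 0 at 1e-08. Of 45626 sites tested in all 4 pools, 218 were called in each of them in the main setting, but not in 1 direction. With Benjamini-Hochberg the count of 1 direction in these pools was 660. With the experiment as a replicate block, a Cochran-Mantel-Haenszel test called 3586, 9519 and 1411 sites for assimilated, nonassimilated and control pools. A change in 1 experiment can be enough for that call, so these are not counts of shared changes. For mean 2pq the replicate block gave a difference of -0.103 between selected and unselected pools (exact permutation test, p = 0.222), and it lay between -0.118 and -0.0885 without either experiment. The causes of these shifts were not tested.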
